A study of Mus musculus with 18 samples.

Results

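The ADAM (a disintegrin and metalloprotease) mRNAs of male germ cells were examined in round spermatids (RS), the haploid cells that form after meiosis, of WT, KO and KI mice. The 10 genes listed (Adam1a, Adam1b, Adam2, Adam3, Adam5, Adam18, Adam24, Adam29, Adam30 and Adam32) were taken by their symbols from the count table of 54232 genes, and all 10 were detected and tested. KO mice lack gonadotropin-regulated testicular RNA helicase (GRTH), the product of Ddx25, and KI mice carry a human GRTH gene with a missense mutation that removes the phosphorylated form of the protein. RS were separated by sedimentation from testes of mice aged 75 to 85 days in all 3 genotypes, and 6 mRNA libraries were made per genotype, 18 in all. Spermatogenesis in both mutant lines stops at the RS stage, so their testes hold no elongating spermatids beside the RS, whereas WT testes do. Whether a library came from 1 mouse or from pooled mice is not given in the sources used here, so the p-values measure the spread between these samples only.

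ADAM proteins are membrane proteins with a metalloprotease domain, a disintegrin domain and a cysteine-rich domain, and many of those made in the testis end on the sperm head. Fertilin is a dimer of ADAM2 with an ADAM1 partner: ADAM1B pairs with ADAM2 on mature sperm, and the ADAM1A form acts in the endoplasmic reticulum of spermatids. ADAM3 is needed for sperm to pass from the uterus into the oviduct and to bind the zona pellucida, and reaches the sperm surface only when a set of chaperones and other sperm proteins is intact. Part of the family keeps the zinc-binding site of an active protease, and part has lost it.

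That site is printed first because it separates the listed genes into the groups described afterwards. The protease consensus is a histidine and a glutamate, then a histidine, a glycine and a last histidine, 5 fixed residues within 11 codons. The coding bases of the site were read from the GENCODE M21 transcripts on GRCm38, found by the consensus itself in Adam1a, Adam1b, Adam24 and Adam30 and by alignment to Adam24 in the other 6 genes. Each run is written 5′ to 3′ on the coding strand, capitals mark the codons of the 5 fixed residues that are kept, and each lies within 1 coding exon.
Adam1a (chr5:121520089-121520121, minus strand): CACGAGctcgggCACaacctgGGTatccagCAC
Adam1b (chr5:121501937-121501969, minus strand): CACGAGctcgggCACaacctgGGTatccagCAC
Adam24 (chr8:40680518-40680550, plus strand): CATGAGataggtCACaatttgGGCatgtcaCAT
Adam30 (chr3:98161861-98161893, plus strand): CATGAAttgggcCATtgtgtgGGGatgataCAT
Adam29 (chr8:55872374-55872406, minus strand): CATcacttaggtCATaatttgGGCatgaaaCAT
Adam2 (chr14:66053841-66053873, minus strand): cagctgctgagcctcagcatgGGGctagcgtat
Adam3 (chr8:24707418-24707450, minus strand): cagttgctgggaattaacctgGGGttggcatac
Adam5 (chr8:24806449-24806481, minus strand): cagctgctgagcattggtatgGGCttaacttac
Adam18 (chr8:24647848-24647880, minus strand): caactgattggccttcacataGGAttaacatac
Adam32 (chr8:24901501-24901533, minus strand): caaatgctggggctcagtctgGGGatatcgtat

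All 5 fixed residues were kept in Adam1a, Adam1b, Adam24 and Adam30, 4 of 5 were kept in Adam29, and only the glycine, 1 of 5, remained in Adam2, Adam3, Adam5, Adam18 and Adam32. The same division held for gene structure. Adam1a, Adam1b, Adam24, Adam29 and Adam30 each had 1 coding exon, and the other 5 had between 19 (Adam18) and 22 (Adam32) coding exons. Adam1a and Adam1b had the same bases at the site, and their proteins were identical at 72.3% of 752 aligned positions.

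Adam18, Adam3, Adam5 and Adam32 lay side by side in that order on the minus strand of chromosome 8, from base 24602246 to base 24948804. Adam24 (chr8:40675077-40682199) stood on the same chromosome beside Adam25, Adam20 and Adam39, the last of which ends at base 40827037. Adam29 was at chr8:55870912-55906948, Adam30 at chr3:98160630-98164169 and Adam2 at chr14:66027329-66077733. Adam1b (chr5:121500098-121503435) and Adam1a (chr5:121518576-121545482) were neighbours on chromosome 5.

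The RefSeq promoter table (GRCm38.p6) matched 3 of the 10 genes. These windows run from 250 bases before to 50 bases after the start site, and are shown because Adam1a and Adam29 were lower in both mutants while Adam1b, the closest relative of Adam1a, was not called. Capitals mark a match to the TATA box TATAAA on either strand.
Adam29 (chr8:55906915-55907214, minus strand): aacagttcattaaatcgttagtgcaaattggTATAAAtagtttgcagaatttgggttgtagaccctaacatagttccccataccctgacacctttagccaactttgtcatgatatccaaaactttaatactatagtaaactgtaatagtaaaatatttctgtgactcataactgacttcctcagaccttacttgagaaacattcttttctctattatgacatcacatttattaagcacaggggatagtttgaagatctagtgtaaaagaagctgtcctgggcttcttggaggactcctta
Adam1a (chr5:121521646-121521945, minus strand): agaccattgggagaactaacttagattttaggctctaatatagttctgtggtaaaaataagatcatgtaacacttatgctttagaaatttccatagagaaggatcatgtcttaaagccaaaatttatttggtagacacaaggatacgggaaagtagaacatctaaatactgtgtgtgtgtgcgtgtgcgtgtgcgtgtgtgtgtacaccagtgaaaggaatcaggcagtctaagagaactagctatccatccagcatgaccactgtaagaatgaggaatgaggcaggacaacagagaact
Adam1b (chr5:121503386-121503685, minus strand): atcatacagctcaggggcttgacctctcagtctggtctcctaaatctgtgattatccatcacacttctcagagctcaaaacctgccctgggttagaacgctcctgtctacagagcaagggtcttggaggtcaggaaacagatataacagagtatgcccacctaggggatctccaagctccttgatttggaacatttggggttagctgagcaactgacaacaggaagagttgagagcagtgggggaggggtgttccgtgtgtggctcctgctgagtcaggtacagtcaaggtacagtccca

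The Adam29 window held 1 TATAAA, at position -219 from the start site, a motif found in 13.6% of all 32851 promoters of this length. None of the 3 windows held the cAMP response element TGACGTCA or its half-site TGACG, which were found on either strand in 1.79% and 20.8% of promoters. The half-site is contained in the full element, and a window without these letters says nothing about the factor that binds them. The Adam1a and Adam1b windows were identical at 57.7% of 274 aligned bases. The Adam1b window holds the start of the gene as counted, at base 121503435. The Adam1a window lies wholly inside the gene as counted, which runs to base 121545482, so the 2 annotations place the Adam1a start differently.

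Total counts on genes were between 18766971 and 26776555 per library. Ddx25, the targeted gene, was at 538 to 607 CPM (counts relative to the library size, scaled by TMM) in WT, at 47.7 to 90.9 CPM in KO, and at 0.0456 to 0.519 CPM in 5 KI libraries. These are counts on the mouse gene, and KI mice carry a human GRTH gene. The part of this in the KI level was not tested. The library labelled KI 4 had 56.9 CPM of Ddx25, within the range of the KO libraries and against its label. It was also the closest of all libraries to KO 2, with a distance of 1.59 on a scale on which counting noise alone gives 1. Within genotypes, 6 pairs (WT 1 and 2, WT 3 and 4, WT 5 and 6, KO 4 and 5, KI 1 and 2, KI 3 and 5) lay at 2.05 to 3.24, and the next pair of libraries at 4.73. Whether these pairs share a source cannot be told from the labels, so values are given with all libraries and with each pair summed into 1 library.

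All 8 markers of round spermatids were above the floor of 3 counts, with a summed level of 858 to 1398 CPM in WT, 549 to 1271 in KO and 589 to 838 in KI, and 2 of them fell in KO and 4 in KI. The 8 markers of elongating spermatids summed to 13203 to 18047 CPM in WT, 1614 to 3732 in KO and 1986 to 3207 in KI, and all 8 fell in both mutants. According to the study, the mRNAs of Tnp2 and Prm2, which are among these markers, are already made in RS and stored there. The sum is therefore not a measure of elongating spermatids alone. The 6 Leydig cell markers summed to 9.76 to 19.7 CPM in WT, 29.9 to 52.0 in KO and 13.4 to 66.1 in KI, and all 6 rose in both. Markers of Sertoli cells stayed under 10 CPM in sum in every library (the highest was 9.68). The part of these differences in the ADAM results was not tested. In such bulk samples fewer cells of a stage and less mRNA per cell cannot be told apart.

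Per length of exons, the listed genes covered a wide range in WT. Adam5 was highest at 283 ± 64.3 CPM per kb (SD, n = 6), followed by Adam3 at 207 ± 76.5, Adam32 at 198 ± 53.2 and Adam2 at 132 ± 8.78. These 4 genes ranked 131, 187, 204 and 374 among the 21058 genes tested. Their ranges overlapped from each gene to the next, but Adam5 and Adam2 did not overlap. Within libraries Adam5 was above each of the other 3 in 6 of 6 WT libraries and Adam32 above Adam2 in 6 of 6, whereas Adam3 was above Adam32 in 3 of 6 and above Adam2 in 5 of 6. A gap without overlap separated Adam2 from Adam24 (49.2 ± 9.84), Adam1b (48.0 ± 1.26) and Adam18 (42.1 ± 4.95), whose ranges overlapped. Adam30 (27.5 ± 1.67) stood alone below these, and Adam1a (15.2 ± 2.49) and Adam29 (10.97 ± 3.38) overlapped at the bottom, at rank 3690 and 4628.

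**Figure D1:**
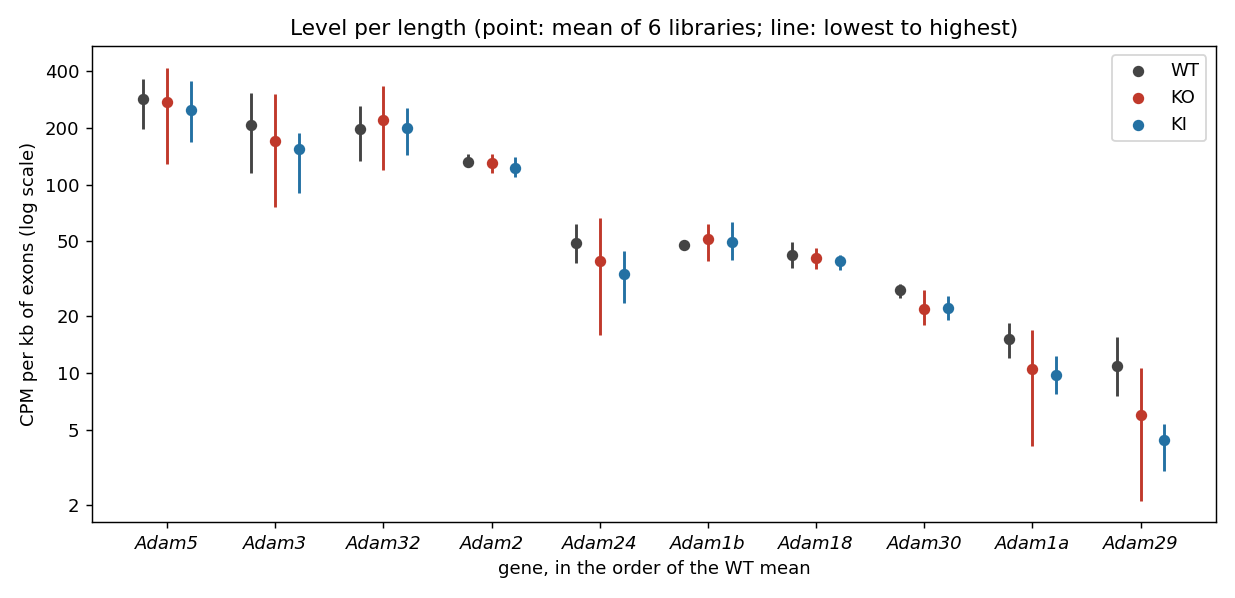
Level per kb of exons (y axis, log scale, CPM per kb) of the 10 genes in WT, KO and KI round spermatids, in the order of the WT mean. Points are means of 6 libraries and lines run from the lowest to the highest library; Adam5, Adam3, Adam32 and Adam2 lie above all the other genes in each genotype, and Adam29 is lowest, at 10.97, 5.96 and 4.41 CPM per kb in WT, KO and KI.

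The value per kb of Adam1a is uncertain. Of its 7508 annotated exonic bases, 36.3% were shared with no gene on the same strand, since the predicted gene Gm42878 and Mapkapk5 overlap the rest, and reads that overlap several genes were not counted. Over the 2725 bases of its own, the WT level was 41.8 ± 6.85 CPM per kb, beside 48.0 for Adam1b. Gm42878 was listed at 0 in every library, but 4779 of its 4783 exonic bases are shared with Adam1a. Reads on shared bases were not counted, so this 0 does not show whether Gm42878 is transcribed. By sequence, 51.9% of 50-base windows of Adam1a (1788 windows) matched Adam1b or Gm42878 exactly, and 32.4% of those of Adam1b (1066 windows) matched Adam1a. The windows shared with Gm42878 lie in the overlapped bases already named, so that part of the 51.9% is no further loss. Reads that lie wholly within stretches shared by Adam1a and Adam1b were not counted either. In Adam3, 2.0% of windows were shared, and none in the other 7.

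The order was much the same in the mutants. In KO it ran Adam5, Adam32, Adam3, Adam2, Adam1b, Adam18, Adam24, Adam30, Adam1a and Adam29, and in KI the order was identical to that of KO. Against WT, Adam32 stood before Adam3, and Adam24 stood after Adam1b and Adam18, but each of these neighbours had overlapping ranges. Within libraries Adam32 was above Adam3 in 6 of 6 KO and 6 of 6 KI libraries.

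The libraries of a genotype differed far more for some genes than for others. In WT the coefficient of variation was 2.62% for Adam1b, 6.05% for Adam30, 6.67% for Adam2 and 11.8% for Adam18, but 22.7% for Adam5, 26.9% for Adam32, 30.8% for Adam29 and 36.9% for Adam3. Adam3 had 823 and 899 CPM in WT 1 and WT 2, 398 and 337 in WT 3 and WT 4, and 650 and 553 in WT 5 and WT 6, so its variation in WT lay between the close pairs and not within them. Adam32 and Adam5 were also highest in WT 1 and WT 2 and lowest in WT 3 and WT 4. In KO, Adam3, Adam5, Adam24, Adam29, Adam32 and Adam1a were all highest in KO 1 and lowest in KO 3.

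**Figure D2:**
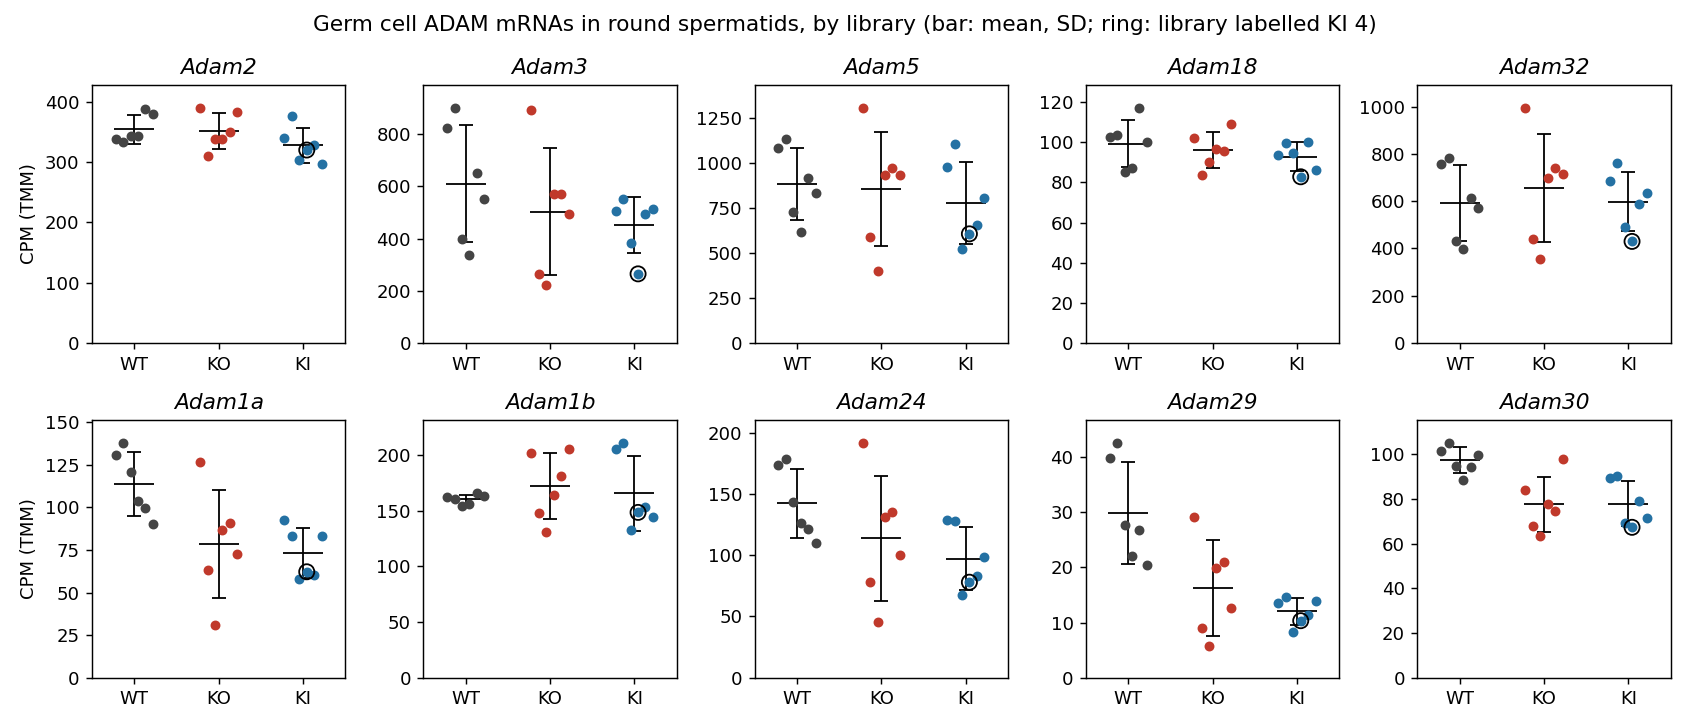
CPM after TMM scaling (y axes, linear, each from 0) of the 10 genes in each library, by genotype; the upper row has the genes with several coding exons and the lower row those with 1. Bars are the mean and SD of 6 libraries and a ring marks the library labelled KI 4; Adam29 in KI (8.21 to 14.6 CPM) is the only gene here whose libraries all lie below the WT libraries (20.5 to 42.5 CPM).

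Against WT, 3 of the 10 mRNAs fell in KO and 3 fell in KI, in both cases Adam1a, Adam29 and Adam30, and none rose. A gene was called at an edgeR quasi-likelihood adjusted p under 0.1 over all 21058 genes. Of all genes tested, 13.5% were lower and 16.4% higher in KO, and 15.4% were lower and 16.1% higher in KI. None of the 10 passed the edgeR test against a change of 1 log2 unit, which 1.48% of genes passed downward in KO and 2.01% in KI; at an unadjusted p under 0.05, 0 members passed that test in KO and 1 (Adam29) in KI, and DESeq2 called 0 in both. For rises of any amount, 0 members reached an unadjusted p under 0.05 in edgeR, and DESeq2 called 0. The median log2 fold change of the 10 was -0.16 in KO and -0.25 in KI, beside 0.03 and 0.05 over all genes tested. The KO and KI comparisons share their WT libraries, so the values of one are no separate evidence for the other.

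The counts depended on the close pairs. With each pair summed, edgeR called 0 of the 10 lower in KO, where 1 (Adam29) had an unadjusted p under 0.05, and 1 (Adam29) in KI. Without the library labelled KI 4, the same 3 genes were called in KI. Without KO 2, only Adam29 (1 of 10) was called in KO.

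Adam29, whose zinc site keeps 4 of the 5 residues, showed the largest change among the 10. It had a lowest, median and highest level of 20.5, 27.2 and 42.5 CPM in WT, of 5.75, 16.3 and 29.1 CPM in KO, and of 8.21, 12.5 and 14.6 CPM in KI. Every KI library was below every WT library, while the KO range overlapped that of WT. The log2 fold change was -0.88 (SE 0.28, edgeR adjusted p = 0.0269) in KO and -1.31 (SE 0.29, adjusted p = 0.00158) in KI, or 0.543 and 0.402 of the WT level. Of all genes, 7.91% had KI libraries entirely below the WT libraries. Without KI 4 the KI value was -1.27 (adjusted p = 0.00442). With close pairs summed it was -0.97 in KO (adjusted p = 0.105).

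Adam30, which keeps the whole site, fell by a smaller amount with little spread. Its lowest, median and highest levels were 88.6, 97.1 and 105 CPM in WT, 63.6, 76.1 and 97.9 CPM in KO, and 67.3, 75.2 and 90.4 CPM in KI. KO 6 (97.9 CPM) lay in the middle of the WT range, KI 1 and KI 2 at its lower end, and the other mutant libraries below it. The log2 fold change was -0.33 (SE 0.12, edgeR adjusted p = 0.0449) in KO and -0.32 (SE 0.12, adjusted p = 0.0457) in KI. Neither call held without the filter on low counts (adjusted p = 0.111 and 0.206) or with close pairs summed (0.252 and 0.267, with log2 fold changes of -0.32 and -0.34), and they were also lost without KO 2 in KO (0.107) and without WT 3 in KI (0.134).

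Of the fertilin genes, Adam1a was the one that fell. Its lowest, median and highest levels were 90.4, 112 and 138 CPM in WT, 31.0, 79.8 and 127 CPM in KO, and 58.1, 72.6 and 92.6 CPM in KI. KO 1 (127 CPM) and KO 5 (90.7 CPM) lay within the WT range, and in KI only KI 1 did. The log2 fold change was -0.54 (SE 0.22, edgeR adjusted p = 0.0852) in KO and -0.64 (SE 0.22, adjusted p = 0.0391) in KI. Leaving out WT 1, WT 2, KO 2, KO 3, KO 4 or KO 6 ended the call in KO (adjusted p from 0.102 to 0.166), and summing the close pairs ended it in both mutants (0.245 and 0.252), with log2 fold changes of -0.59 and -0.62.

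Adam1b and Adam2, which encode the dimer of mature sperm, were not called. Adam1b had a median of 161 CPM in WT, 172.5 CPM in KO and 151 CPM in KI, with the WT libraries in a narrow band from 155 to 165 CPM. Its log2 fold change was 0.10 in KO (95% interval -0.18 to 0.38) and 0.05 in KI (-0.23 to 0.33). Adam2 had medians of 343, 344 and 324 CPM in the same order, with a log2 fold change of -0.01 (-0.23 to 0.20) in KO and -0.11 (-0.33 to 0.10) in KI. For both genes the intervals leave out a change of 1 log2 unit in either direction, and smaller changes only beyond the limits given.

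Whether Adam1a differed from the other 2 fertilin genes, Adam1b and Adam2, was tested within libraries, as a ratio of counts that needs no scaling. For each Adam1b count the WT libraries had 0.712 ± 0.122 Adam1a counts (SD, n = 6), the KO libraries 0.446 ± 0.138 and the KI libraries 0.445 ± 0.0679. The mean log2 ratio differed from WT by -0.72 in KO (two-sided exact permutation test, p = 0.00649, adjusted p = 0.0170 over 21 tests of 7 ratios) and by -0.67 in KI (exact permutation p = 0.00433, adjusted p = 0.0130). The ranges overlapped in both cases: WT from 0.553 to 0.861, KO from 0.237 to 0.628 and KI from 0.392 to 0.576. With close pairs averaged, an alternative chosen after seeing the data, the differences were -0.78 and -0.63 (exact permutation p = 0.0714 and 0.0571), where 0.0357 and 0.0571 are the smallest p-values that 5 against 3 and 4 against 3 libraries allow. Neither passed after adjustment (exact permutation adjusted p = 0.188 and 0.171). Adam1a per Adam2 differed by -0.63 in KO (exact permutation p = 0.0411, adjusted p = 0.0863) and by -0.53 in KI (p = 0.0173, adjusted p = 0.0404), and the KO call was lost in 8 of the fits that leave out 1 library (adjusted p from 0.109 to 0.173). With close pairs averaged neither difference passed (exact permutation p = 0.143 and 0.114, adjusted p = 0.300 and 0.267).

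Adam1b per Adam2, the ratio of the dimer's genes, had means of 0.453 ± 0.0232, 0.487 ± 0.0536 and 0.503 ± 0.0645 (SD, n = 6) in WT, KO and KI. The differences, 0.10 and 0.14 log2 units, did not pass the test (exact permutation p = 0.232 and 0.113), although they did without KO 3 (0.16, adjusted p = 0.0303) and without KI 3 (0.18, adjusted p = 0.0826). Adam3 per Adam2 had means of 1.73 ± 0.691, 1.40 ± 0.598 and 1.38 ± 0.310, and its differences were not called either (exact permutation p = 0.377 and 0.355).

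The 4 neighbouring genes on chromosome 8 were not called in either mutant. Adam3 had 337, 602 and 899 CPM as lowest, median and highest in WT, 223, 533 and 892 CPM in KO, and 265, 499 and 551 CPM in KI. Its log2 fold change was -0.28 in KO (SE 0.29, edgeR adjusted p = 0.556) and -0.43 in KI (SE 0.29, adjusted p = 0.310). With this spread the 95% intervals ran from -0.88 to 0.32 and from -1.03 to 0.17, so that both no change and a value of -0.88 in KO lie within what these libraries allow.

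Adam5 had a WT median of 875 CPM, a KO median of 933 and a KI median of 731, with intervals of the log2 fold change from -0.55 to 0.45 in KO and from -0.68 to 0.31 in KI. Adam32, which codes for a sperm ADAM without the protease site, had medians of 592.5, 706 and 611.5 CPM, with intervals from -0.31 to 0.61 and from -0.45 to 0.48. Adam18 had medians of 101.5, 96.1 and 94.3 CPM and the narrowest intervals of the 4, from -0.26 to 0.17 and from -0.31 to 0.12. Although these genes adjoin on 1 strand, Adam18 did not share the wide spread of Adam3, Adam5 and Adam32 between libraries.

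Adam24, which codes for a protease of the sperm surface also known as testase 1, lay between the groups. Its lowest, median and highest levels were 110.2, 135 and 179 CPM in WT, 45.8, 115.5 and 191 CPM in KO, and 67.7, 90.7 and 128 CPM in KI. KO spanned the whole WT range and beyond on both sides. The log2 fold change was -0.32 in KO (SE 0.25, edgeR adjusted p = 0.389) and -0.55 in KI (SE 0.25, adjusted p = 0.111). The KI value passed the threshold when KI was compared with WT alone (adjusted p = 0.0409) and in the fits without WT 6, KI 1, KI 2, KO 1 or KO 3 (0.0457 to 0.0954).

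By structure, the 5 genes with several coding exons had log2 fold changes from -0.28 to 0.15 in KO (median -0.05) and from -0.43 to 0.01 in KI (median -0.11), with 0 called. The 5 genes with 1 coding exon ran from -0.88 to 0.10 in KO (median -0.33) and from -1.31 to 0.05 in KI (median -0.55). Of these 5, 3 were called lower in each mutant, where 13.5% (KO) and 15.4% (KI) of all genes tested were lower. The difference between the 2 groups of 5 was not tested. The 10 other germ cell ADAM genes described below also have 1 coding exon each. Of those 10, 6 fell in KO and 7 in KI, and Adam6a, Adam6b and Adam26b were called in neither.

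KI and KO did not differ detectably in any of the 10. edgeR called 0 members, 0 had an unadjusted p under 0.05, and DESeq2 called 0, where 0.0997% of all genes were called. The largest difference was in Adam29, with a log2 fold change of -0.43 in KI against KO (95% interval -1.03 to 0.16, edgeR adjusted p = 0.961). The intervals of the other 9 lay between -0.76 (Adam3) and 0.45 (Adam3), and those of Adam2 and Adam18 were within 0.32 of 0. The library labelled KI 4 resembled KO 2 gene by gene: 265 CPM each for Adam3, 607 and 590 for Adam5, 429.5 and 438 for Adam32, and 62.2 and 63.0 for Adam1a.

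**Figure D3:**
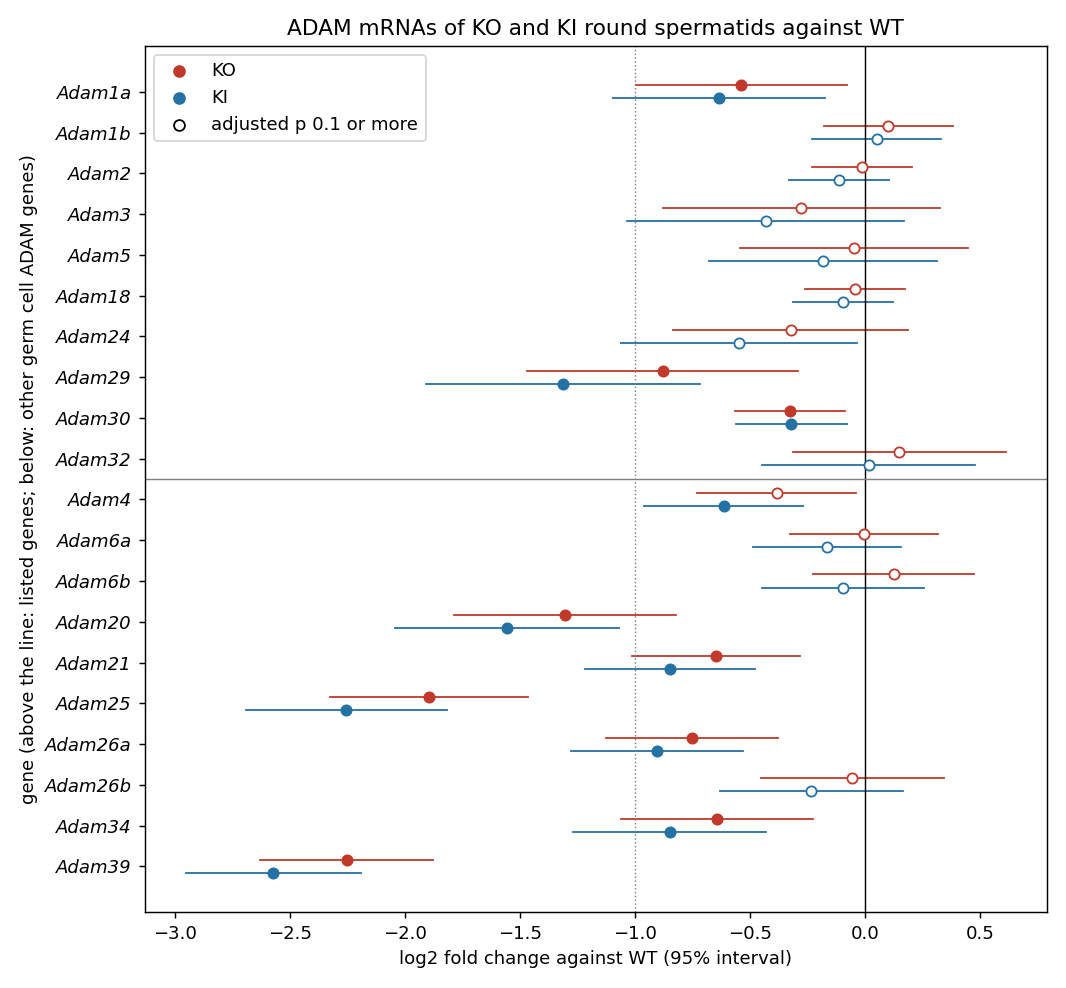
Log2 fold change against WT (x axis, with 95% interval) in KO and KI for the 10 listed genes, above the line, and the 10 other germ cell ADAM genes, below it. Filled points passed an adjusted p of 0.1 and the dotted line marks a fall of 1 log2 unit; among the listed genes Adam29 lies furthest left, at -0.88 and -1.31, and among the others Adam39 does, at -2.25 and -2.57.

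A list of 10 other ADAM genes of male germ cells was examined in the same fit. In KO, 6 of 10 fell (Adam20, Adam21, Adam25, Adam26a, Adam34 and Adam39), in KI these 6 and Adam4, and none rose, where 13.5% and 15.4% of all genes tested were lower. The medians were -0.65 and -0.85 log2 units. Adam6a, Adam6b and Adam26b were not called in either mutant, with log2 fold changes from -0.06 to 0.12 in KO and from -0.23 to -0.10 in KI. Of the rises, 0 reached an unadjusted p under 0.05 in edgeR, and DESeq2 called 0. With close pairs summed, 5 in KO and 6 in KI were still called, without Adam34 in KO and without Adam4 in KI. In KI all 7 genes that fell had no overlap with WT, and in KO Adam20, Adam25 and Adam39 did not, where 7.91% of all genes in KI and 6.44% in KO had libraries entirely below the WT libraries. Between this list and the first 10 genes the difference was not tested.

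The neighbours of Adam24 changed most. Adam39 had a lowest, median and highest level of 31.9, 38.4 and 51.0 CPM in WT, 6.22, 7.84 and 13.4 in KO and 4.79, 6.69 and 8.58 in KI, with no overlap between either mutant and WT. Its log2 fold change was -2.25 (SE 0.18) in KO and -2.57 (SE 0.18) in KI, both past 1 log2 unit (edgeR adjusted p = 6.55e-06 and 2.82e-07). Adam25, known as testase 2, had a log2 fold change of -1.89 (SE 0.21) in KO and -2.25 (SE 0.21) in KI, also past 1 log2 unit (adjusted p = 0.00173 and 3.88e-05). Adam20 was at -1.30 in KO (SE 0.23, adjusted p = 0.000255 for a change of any amount) and at -1.56 in KI (SE 0.23, adjusted p = 3.34e-05), and against 1 log2 unit it passed in KI (adjusted p = 0.0999) and not in KO (0.749). Between 34.2% and 36.1% of the 50-base windows of these 3 genes matched one another or the predicted gene Gm2080, and reads lying wholly within such windows were not counted, so the levels of these 3 genes may be too low, whereas Adam24 shared none. In the rest of the list the shares were 36.7% (Adam26b), 36.4% (Adam26a), 29.6% (Adam6b), 29.5% (Adam6a), 27.3% (Adam34), 17.4% (Adam4) and 0.0% (Adam21). The same limit applies to those that share windows.

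Set against Adam24 in the same library, all 3 were lower in the mutants with no overlap of the ranges. Adam20 per Adam24 was 0.620 ± 0.0108 (SD, n = 6) in WT but 0.320 ± 0.0169 in KO and 0.310 ± 0.0240 in KI. Adam25 per Adam24 was 0.345 ± 0.0176, 0.121 ± 0.0202 and 0.107 ± 0.0179, and Adam39 per Adam24 was 0.288 ± 0.0345, 0.0841 ± 0.0314 and 0.0716 ± 0.00961. Each of the 6 differences from WT had the smallest p that the exact permutation test of 6 against 6 can give (p = 0.00216, adjusted p = 0.00756). With close pairs averaged they also had the smallest p that 5 or 4 against 3 libraries allow (exact permutation p = 0.0357 and 0.0571), and none passed after adjustment (0.171). Between KI and KO, none of the 7 ratios passed (lowest exact permutation p = 0.216). Without the library labelled KI 4, Adam25 per Adam24 differed by -0.25 log2 units (exact permutation p = 0.0563, adjusted p = 0.107). With close pairs averaged as well it differed by -0.28, at the smallest p that 5 against 3 allow (exact permutation p = 0.0357, adjusted p = 0.188). The ratio of Adam20 to Adam24 varied little between the KO libraries, in which Adam24 itself ranged from 45.8 to 191 CPM.

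**Figure D4:**
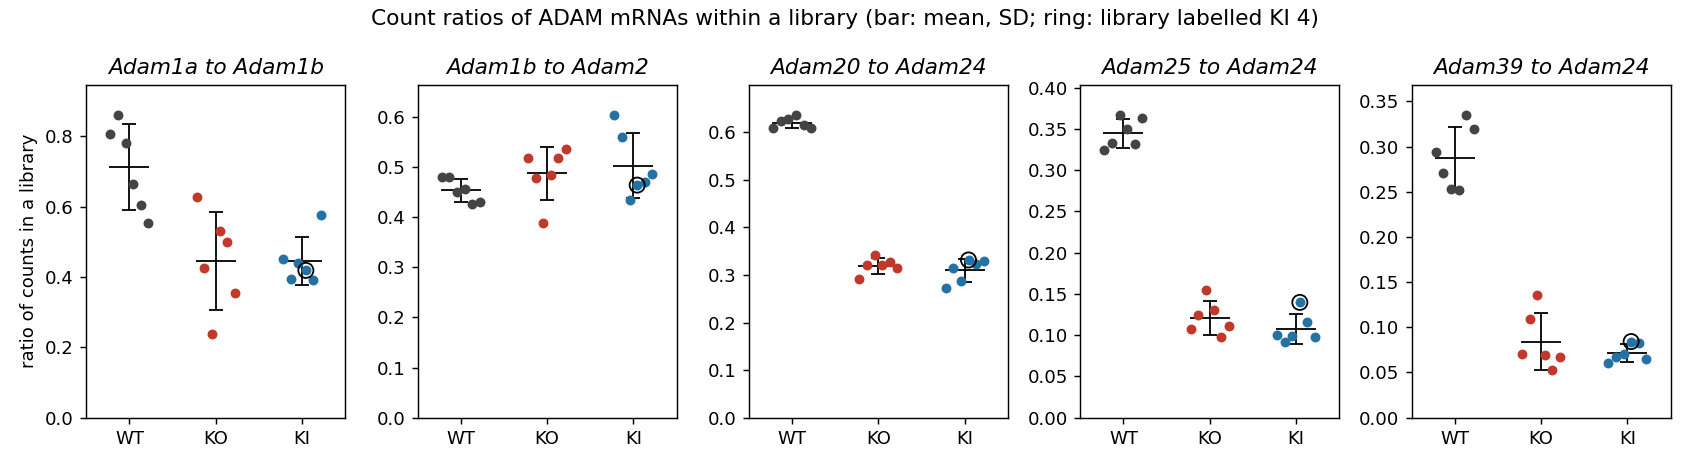
Ratio of counts of 2 ADAM genes in the same library (y axes, linear, each from 0) for 5 gene pairs, by genotype; bars are the mean and SD of 6 libraries and a ring marks the library labelled KI 4. Adam20, Adam25 and Adam39 per Adam24 separate WT from both mutants without overlap, Adam1a per Adam1b is lower in KO and KI with overlap, and Adam1b per Adam2 overlaps throughout.

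Of 15 genes whose products are needed for ADAM3 or fertilin to mature or to be placed on sperm, 3 fell in KO (Calr3, Ace and Prss37), 4 fell in KI (these and Pmis2), and none rose, beside 13.5% and 15.4% of all genes that were lower. Of the rises, 1 (Tex101 in KO) reached an unadjusted p under 0.05 in edgeR, and DESeq2 called 0. Leaving out 1 library brought rises past the threshold: Tex101 in KO without WT 6 (adjusted p = 0.0782), Tex101 and Tpst2 in KO without KO 6 (0.0943 and 0.0931), and Tpst2 in KI without WT 6 (0.0974) or KI 4 (0.0808). Ace, whose germ cell form is an angiotensin-converting enzyme needed for sperm to enter the oviduct, had 429 to 671 CPM in WT, 81.2 to 240 CPM in KO and 134 to 194 CPM in KI, with no overlap. Its log2 fold change was -1.54 (SE 0.20) in KO and -1.70 (SE 0.21) in KI, past 1 log2 unit in both (edgeR adjusted p = 0.0681 and 0.0115). Calr3, which codes for the testis calreticulin calsperin, a chaperone that ADAM3 needs, fell in KO (-0.60, adjusted p = 0.00724) and in KI (-0.83, adjusted p = 0.000422). Prss37, a protease-like protein of sperm, fell as well (-0.54, adjusted p = 0.0142, and -0.67, adjusted p = 0.00252). Pmis2 was at -0.47 in KO (adjusted p = 0.136) and fell in KI (-0.71, adjusted p = 0.0224), a call that was lost with close pairs summed. In KO its fall passed with the replicate number as a block (edgeR adjusted p = 0.059) and without WT 6, KO 1 or KO 5 (0.0648 to 0.0961). A fall of Pdilt in KI passed without KO 1 (edgeR adjusted p = 0.0957).

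The remaining 11 were not called in either mutant. Clgn, coding for calmegin, the chaperone of fertilin assembly, was the most abundant of the list per length in WT, at 171 CPM per kb, with medians of 723, 828 and 708 CPM in WT, KO and KI and a log2 fold change of 0.27 and 0.05. The others were the disulfide isomerase gene Pdilt (0.14 and -0.47), the tyrosine sulfotransferase gene Tpst2 (0.41 and 0.41), Cmtm2a (0.06 and 0.00) and Cmtm2b (-0.07 and -0.12), the protease gene Prss55 (-0.06 and -0.30), the surface protein genes Tex101 (0.28 and 0.09), Ly6k (0.02 and -0.16) and Lypd4 (0.18 and 0.11), Rnase10 (0.20 and 0.09), and the proprotein convertase gene Pcsk4 (-0.01 and 0.02). The median of all 15 was 0.02 in KO and -0.12 in KI.

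**Figure D5:**
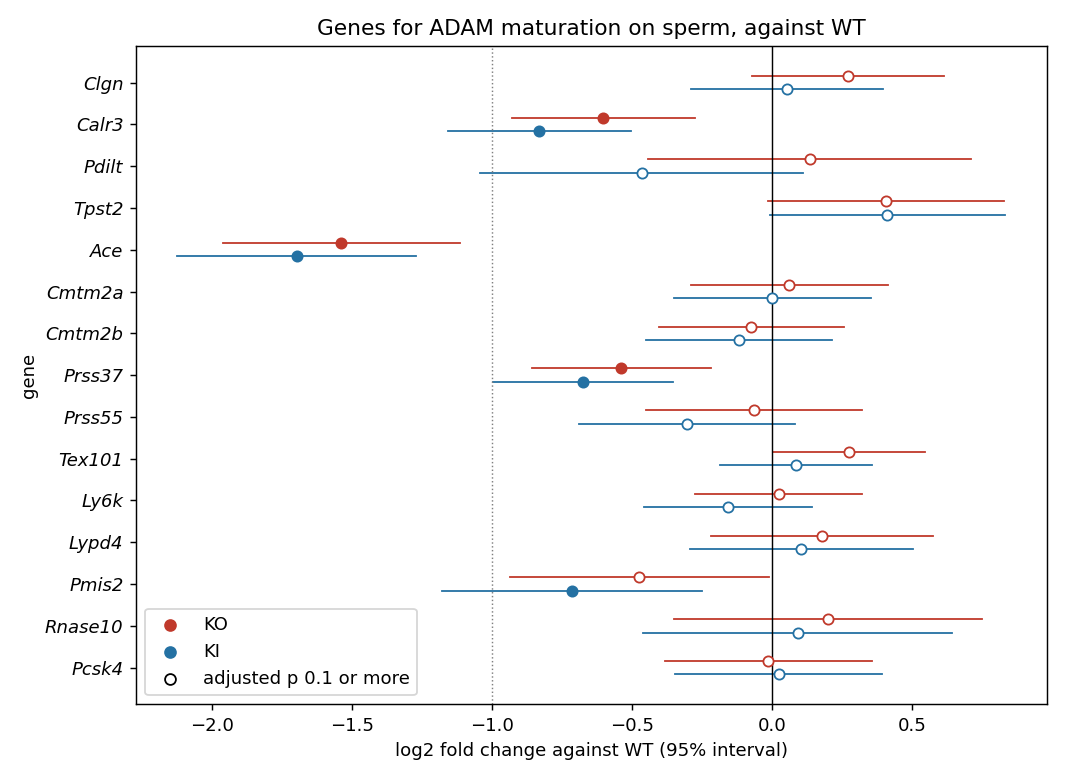
Log2 fold change against WT (x axis, with 95% interval) in KO and KI for 15 genes whose products act in the maturation or placement of ADAM proteins. Filled points passed an adjusted p of 0.1 and the dotted line marks a fall of 1 log2 unit; Ace lies furthest left, at -1.54 and -1.70, and most other genes have intervals that include 0.

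ADAM genes of wide or somatic expression were low in these cells. Of 14 listed, 10 passed the filter on low counts, 3 of them rose in KO (Adam12, Adam17 and Adam23) and 5 in KI (these, Adam19 and Adam22), and none fell (0 at an unadjusted p under 0.05 in edgeR, 0 called by DESeq2). Of all genes tested, 16.4% were higher in KO and 16.1% in KI. Adam17, the sheddase of membrane-bound growth factors and cytokines, was highest per length in WT at 2.11 CPM per kb, and rose by 0.33 log2 units in KO (edgeR adjusted p = 0.0234) and by 0.29 in KI (adjusted p = 0.0476). Adam9, which adjoins Adam32 on chromosome 8, had 1.95, 2.14 and 2.24 CPM per kb in WT, KO and KI and was not called (adjusted p = 0.558 and 0.328). The Leydig cell markers rose in the same comparisons, from a mean sum of 12.03 CPM in WT to 39.98 in KO and 34.9 in KI. Of the markers of other cells, 2 of 5 for macrophages rose in each mutant, and 2 of 7 for spermatogonia in KO and 1 in KI. Of 3 peritubular markers, 2 rose and 1 fell in KO, and 1 rose and 1 fell in KI. Their summed level had means of 3.83, 3.63 and 2.64 CPM in WT, KO and KI. Of 8 spermatocyte markers, 2 rose and 1 fell in KO, and 1 rose and 1 fell in KI. Of 6 Sertoli cell markers tested, 0 rose and 1 fell in each mutant, and 0 of 3 endothelial markers were called. The part of these cells in the rises was not tested. With close pairs summed, 1 gene of this list, Adam23, was called in each mutant. In KO 1 gene was called without the filter on low counts, and in KI 2 without KI 3.

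The genes whose levels over the 18 libraries followed the median of the 10 listed genes most closely were Ppp2r3c, 4930518J20Rik, 4930444P10Rik, Cetn1 and Wdr31. Likeness was the mean absolute difference of log2 CPM, each gene centred on its WT mean, and was 0.0772 for Ppp2r3c, a phosphatase subunit, and 0.0879 for Wdr31. The median profile itself ran from -0.16 to 0.32 in WT, from -0.90 to 0.25 in KO and from -0.53 to -0.02 in KI.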

How the data were processed

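Per the study's methods, adapters were removed (cutadapt 3.4) and reads aligned by STAR 2.7.8a to GRCm38 (mm10). The authors marked duplicates, kept them, and counted strand-specific pairs on GENCODE M18 genes with featureCounts (Subread 2.0.1). They deposited 1 table of raw counts per gene, in which reads that map to several places or genes are left out. Libraries came from total RNA without polyA selection. Symbols, positions and coding sequences came from the GENCODE M21 annotation of that build (54079 of 54232 identifiers matched), and promoters from RefSeq. 0 columns were left without a library.

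Counts were filtered with filterByExpr, which left 21058 genes, scaled by TMM and fitted in 1 model of genotype over 18 libraries with edgeR 4.0.16 (quasi-likelihood test; glmTreat against 1 log2 unit; R 4.3.3, limma 3.58.1), with Benjamini-Hochberg adjustment over all genes and a threshold of 0.1. Standard errors are the log2 fold change divided by the root of the F statistic. DESeq2 1.42.0 was an alternative; the study used that tool. CPM per kb divides by the exonic length in the table. Ratios of counts were compared by two-sided exact permutation tests over libraries. Alignments used Biopython 1.88 and figures matplotlib 3.10.9 with Python 3.11.15. The fit was tested on simulated counts drawn independently for each library. Close pairs of libraries were not simulated, so that test cannot show how they affect the calls.

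The genes named were the 10 members, 3 further lists (10 germ cell ADAM genes, 14 ADAM genes of wide or somatic expression, named up to 4, and 15 maturation genes), Ddx25, overlapping or adjoining genes where a result turns on them, and the 5 genes with the profile most like the members' median. Members, lists, marker genes, ratios and alternatives were chosen with earlier results of these data known.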

Additional observations from a re-analysis of the deposited data

How the results depend on the processing

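No member changed direction in a called comparison under any alternative. Without the filter on low counts, 2 members were lower in KO (main 3) and 2 in KI (main 3). At an adjusted p under 0.05, 2 were lower in KO and 3 in KI. With the replicate number as a block, or with KI and WT fitted alone, 4 were lower in KI. Apart from leaving out 1 library, the member counts changed most with close pairs summed: 0 members lower in KO and 1 in KI. They were again 0 and 1 with the library labelled KI 4 also left out. That combination was chosen after seeing the data, as were all alternatives for the ratios. Over all genes these 2 settings gave 1871 and 1905 higher and 1784 and 1827 lower in KO, against 3461 and 2836, and 1619 and 1275 higher and 1783 and 1647 lower in KI, against 3397 and 3247. Fewer libraries enter these fits. Leaving out 1 library at a time gave 1 (without KO 2) to 3 members lower in KO and 2 (without WT 3) to 4 in KI, with 2908 to 3581 genes higher and 2538 to 3045 lower in KO, and 2920 to 3843 higher and 2616 to 3434 lower in KI. In KI against KO, 16 genes were higher and 5 lower over all genes. These counts were 71 and 15 with DESeq2, 82 and 15 without the filter on low counts, 3 and 2 with at least 10 counts in every library, 1 and 0 with close pairs summed, 27 and 17 with KI 4 also left out, 3 lower at an adjusted p under 0.05, 0 lower with KI and KO fitted alone, and 7 to 60 higher and 1 to 51 lower without 1 library, the highest of both without KI 4. The cause was not tested.

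The replicate numbers are shared by the genotypes, but libraries with the same number did not deviate together (18 correlations from -0.50 to 0.54, median -0.05, 7 over 0.1), so no pairing was assumed. With the number as a block, 10 genes were lower in KI against KO in place of 5, Adam24 passed the threshold in KI against WT (adjusted p = 0.0522), and Adam1a, Adam29 and Adam30 kept their calls. An outlying library was looked for in each member and genotype (30 groups, Dixon's test), and 0 were found. At these depths the smallest count of a member in a library was 121 (Adam29, KO), above the floor of 3 counts, so the spread between libraries, not depth, limits the comparisons.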
